A study of Oryza sativa with 4 samples.

Results

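WRKY transcription factors are a large family of regulators in plant defence, and 54 rice loci of the family, all outside the small group IIa, are described here in seedling leaves given S-nitrosocysteine (CysNO), a donor of nitric oxide. They were taken from a fixed list of locus identifiers, which does not hold the whole rice family, and all 54 are among the 57995 loci of the deposited tables. Rice seedlings of the genotype Dongjin, 7 days old and grown at 23 °C with 16 h of light and 8 h of dark, were irrigated with 5 mM CysNO (2 libraries) or with 1 mM HCl buffer alone (2 libraries). RNA with poly(A) tails was taken from the leaves and read as 100 bp pairs. The labels state no cysteine control and give the HCl only for the control, so nitric oxide, the rest of the CysNO molecule and the buffer cannot be told apart. No plant, culture or pool is named for a library, so the p-values measure the spread between these samples only, which may be technical.

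WRKY proteins carry a domain with the residues WRKY and a zinc finger, and they bind the W-box, a short promoter element built on TTGAC, in defence genes and in the promoters of other WRKY genes. In rice leaves the family is best known for responses to fungal and bacterial infection, chitin and salicylate. MAP kinases phosphorylate some members, and members can activate or repress their targets. Names are given only where a source pairs them with a locus. WRKY24 and WRKY51 come from a RefSeq gene table, by chromosome and by spans that differ by under 10%. WRKY45, WRKY53, WRKY70 and WRKY13 come from the definition of the list, and the gene table does not hold these names on chromosomes 5 and 1.

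Values are FPKM (fragments counted per kilobase of a transcript, scaled to library size), so levels may be compared between loci. Each library summed to 687469 to 732401 FPKM and had 20444 to 20770 loci at 1 FPKM or more. No read counts were given, so absolute depth is unknown. From 642 loci of very low expression, depth relative to control 1 came to 1.07 for control 2, 0.825 for CysNO 1 and 1.08 for CysNO 2. The 6 leaf markers examined (Rubisco small subunit and light-harvesting genes, some named from general knowledge alone) were high in every library. Their sum was 5811 and 4421 FPKM with buffer and 2820 and 4173 with CysNO, lower in both CysNO libraries. The 3 root markers summed to 21.9 and 12.1 FPKM in the controls and to 7.28 and 30.8 in CysNO, and the silicon transporter gene Lsi2 was at 0 and 0.119 in the controls and at 0.0258 and 4.46 in CysNO. The part of these differences in the WRKY values was not tested. In whole leaf, fewer cells of a type and less RNA per cell cannot be told apart.

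After CysNO 6 of the 48 tested WRKY loci rose and 0 fell. The rise ranged from 1.72 to 3.46 on the log2(FPKM + 1) scale and included WRKY70. A locus was tested if it had at least 1 FPKM in at least 2 libraries, and called at a Benjamini-Hochberg adjusted p under 0.05 over all 21123 tested loci in limma's moderated test. The 6 calls are 12.5% of the tested WRKY loci, and over all tested loci 3.27% were called higher and 0.956% lower. These shares are not matched by level, and over all tested loci more were called at higher levels. In either direction 2.01% were called at a mean of 1 to 5 FPKM and 10.2% at 50 FPKM or more. At an unadjusted p under 0.05 in limma, 18 WRKY loci (37.5%) were higher and 4 (8.33%) lower, against 9.66% and 8.39% of all tested loci. At 24 tested WRKY loci (50%) both CysNO libraries lay above both controls, and at 9 (18.75%) both lay below, against 21.5% and 24.9% of all tested loci. The median log2 fold change was 0.38 over the tested WRKY loci and -0.01 over all tested loci. LOC_Os11g02540 entered the test only through its CysNO libraries and LOC_Os05g04640 only through its controls, so a difference at these loci was built into the filter. None of the 6 calls was kept in limma when either CysNO library was left out or when the replicate number was added as a block, and in these fits their log2 fold changes were 1.60 to 3.55. Their adjusted p in limma was 0.0617 to 0.105 with the block, and with no filter on low values 0 were called. These losses were not particular to the WRKY loci. Over all tested loci the block left 53 higher and 2 lower, and no filter left 2 higher and 0 lower among 30798 loci. Without either CysNO library, nearly all calls over all tested loci were lost as well.

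**Figure D1:**
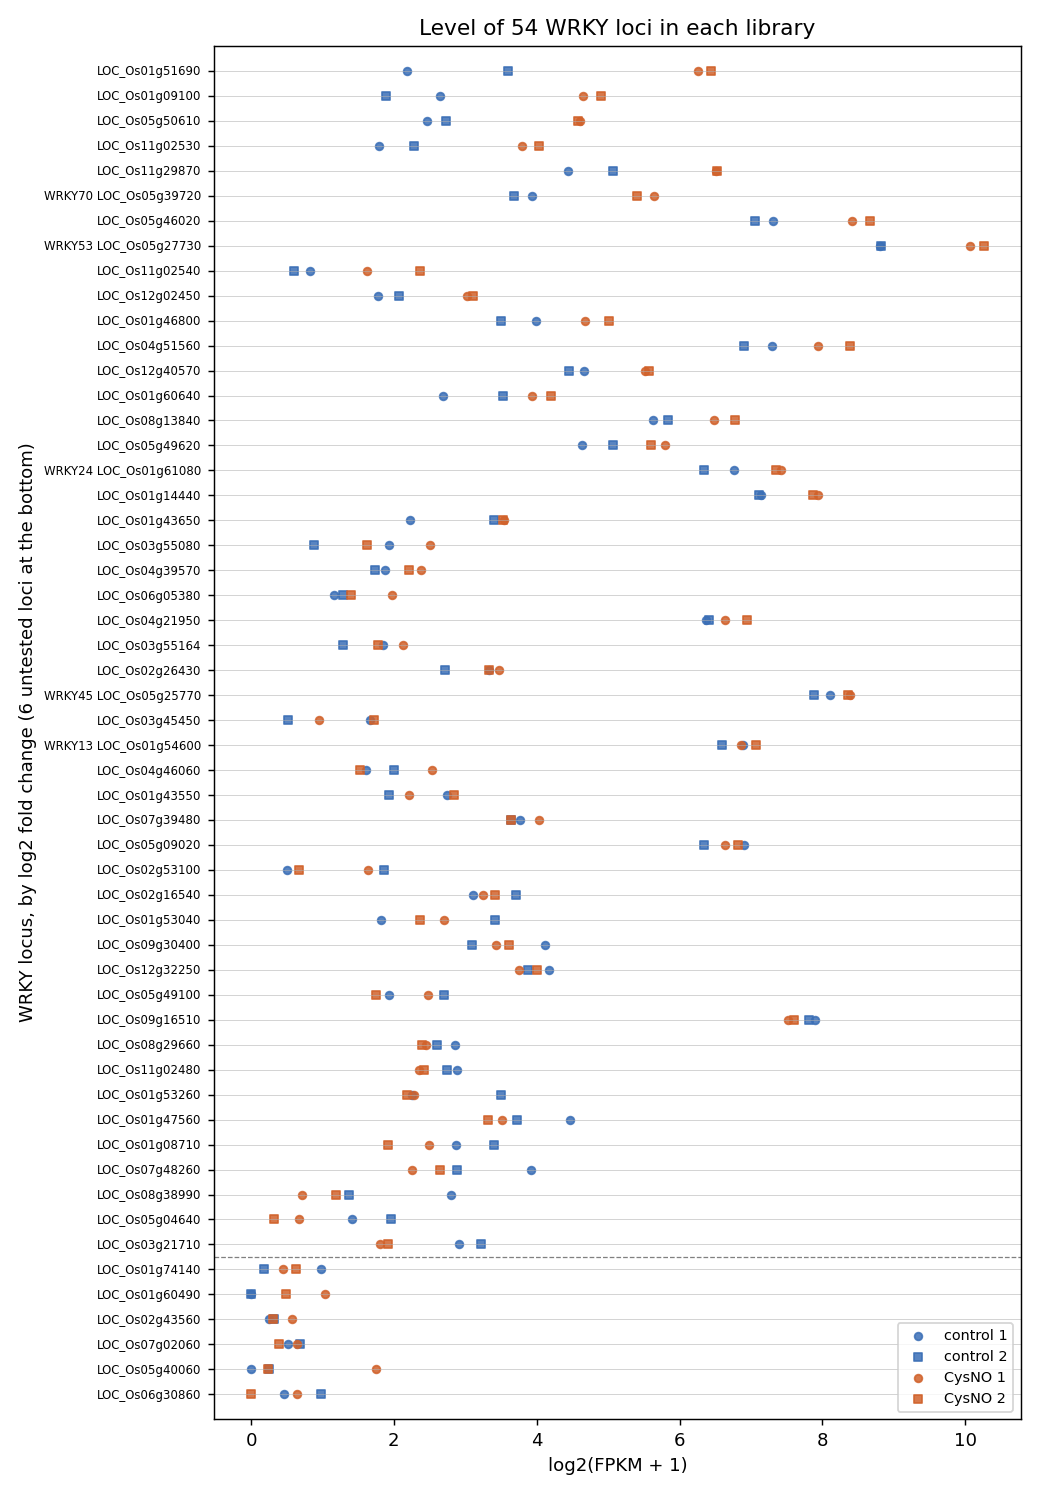
Level of each of the 54 WRKY loci in each library, as log2(FPKM + 1), with controls in blue, CysNO in orange, replicate 1 as circles and replicate 2 as squares. Loci are ordered by log2 fold change, the 6 loci under the dashed line were not tested, and in the top 6 rows the CysNO points stand well to the right of the controls.

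The locus with the highest fold change was LOC_Os01g51690 (chromosome 1, bases 29719878 to 29722020, minus strand). It had 3.55 and 11.1 FPKM in controls 1 and 2, given buffer, and 75.5 and 86.3 in CysNO 1 and 2, an order kept for all values here. The controls differed from each other, and both lay far below CysNO. The log2 fold change was 3.46 ± 0.45 (SE; adjusted p = 0.00981, limma). Among the 21123 tested loci ranked by level within a library, it stood at ranks 16110 and 8899 in the controls and at 1782 and 1453 in CysNO. Leaving out 1 library at a time gave log2 fold changes from 2.75 to 4.17.

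LOC_Os01g09100, also on chromosome 1 (bases 4571448 to 4572409, minus strand), had 5.27 and 2.70 FPKM with buffer and 24.0 and 28.8 with CysNO. The groups were well apart, with a log2 fold change of 2.50 ± 0.33 (SE; adjusted p = 0.0108, limma). LOC_Os05g50610 (chromosome 5, bases 28946491 to 28950527, minus strand) had 4.54 and 5.62 FPKM with buffer and 23.4 and 22.9 with CysNO. Its replicates lay close together in both groups, and it rose by 2.00 ± 0.27 on the log2 scale (SE; adjusted p = 0.0110, limma).

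WRKY70 (LOC_Os05g39720, chromosome 5, bases 23247895 to 23250870, minus strand) is linked in rice to defence against chewing insects at the expense of growth. Its level was 14.3 and 11.8 FPKM with buffer and 49.0 and 41.3 with CysNO. Every CysNO value was above every control value, and the log2 fold change was 1.72 ± 0.26 (SE; adjusted p = 0.0164, limma). LOC_Os11g29870 (chromosome 11, bases 16885937 to 16889672, plus strand) was the most abundant locus called. It had 20.6 and 32.4 FPKM with buffer and 90.5 and 91.3 with CysNO, a log2 fold change of 1.77 ± 0.30 (SE; adjusted p = 0.0218, limma). LOC_Os11g02530, from a cluster described further on, rose by 1.87 ± 0.31 (SE; adjusted p = 0.0204, limma).

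LOC_Os11g02530 and LOC_Os11g29870 did not pass under either of the other scalings, while the other 4, WRKY70 among them, passed with both. With median centring their log2 fold changes were 1.88 and 1.78 (adjusted p = 0.0554 and 0.0656, limma), beside 1.87 and 1.77 without it, and limma's prior degrees of freedom were 3.35 beside 5.36. With quantile normalization they were 1.88 and 1.67 (adjusted p = 0.0503 and 0.0655, limma). Without control 1 the same pair was lost (0.054 and 0.0661). Over all alternatives but the crossed block the adjusted p of the 6 loci ran from 0.000237 to 0.298 in limma. The lowest of these p-values comes from a fit without 1 control, in which the spread comes from the CysNO libraries and the lone control is assumed to vary like them.

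**Figure D2:**
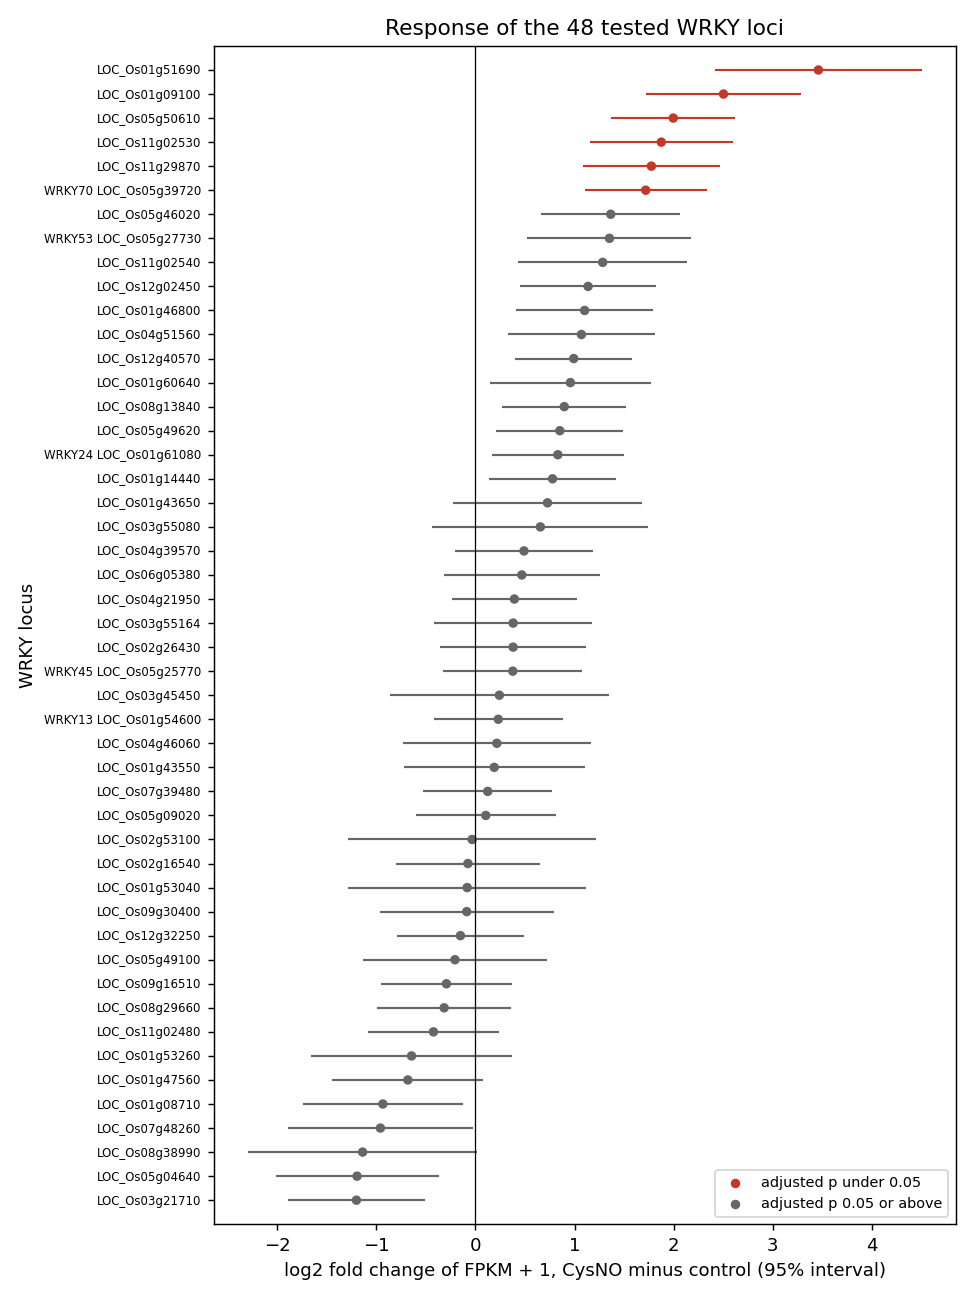
Log2 fold change of FPKM + 1 (CysNO minus control) of the 48 tested WRKY loci with the 95% interval from limma. The 6 loci in red passed at an adjusted p under 0.05, and the intervals of 12 further loci on the positive side and 4 on the negative side do not reach 0.

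Of the abundant members, WRKY53 (LOC_Os05g27730, chromosome 5, bases 16092750 to 16095231, plus strand) had the highest level in every library. It is a chitin-responsive activator of defence genes that MAP kinases phosphorylate. It stood at 447 and 449 FPKM with buffer and 1071 and 1226 with CysNO. The controls were nearly equal and the groups were far apart, and its rank among the tested loci went from 139 in each control to 34 and 27 in CysNO. With a log2 fold change of 1.35 ± 0.35 (SE; adjusted p = 0.0862, limma) it did not pass over all loci.

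LOC_Os05g46020 (chromosome 5, bases 26619830 to 26621566, plus strand) came closest to the threshold among the WRKY loci that did not pass. It had 157 and 132 FPKM with buffer and 341 and 405 with CysNO, a log2 fold change of 1.36 ± 0.30 (SE; adjusted p = 0.0521, limma). It was the 1 further WRKY locus called with a filter of 5 FPKM (limma, adjusted p = 0.0383, within a range of 0.0383 to 0.291 over all alternatives but the crossed block). Over all loci that filter gave 738 calls higher and 246 lower among 14629 loci, beside 691 and 202 among 21123 in the main fit. LOC_Os04g51560 had 155 and 118 FPKM with buffer and 245 and 333 with CysNO (log2 fold change 1.07 ± 0.32, SE; adjusted p = 0.125, limma). At both loci the CysNO libraries lay above the controls.

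WRKY45 and WRKY13, both known for resistance to blast fungus and bacterial blight, did not pass. WRKY45 (LOC_Os05g25770, chromosome 5, bases 14934122 to 14936343, plus strand), which acts in the salicylate pathway, had 274 and 235 FPKM with buffer and 333 and 327 with CysNO. Its log2 fold change was 0.38 with a 95% interval from -0.33 to 1.08 (adjusted p = 0.611, limma). WRKY13 (LOC_Os01g54600, chromosome 1, bases 31407960 to 31409934, minus strand) had 117 and 95.3 FPKM with buffer and 115 and 134 with CysNO, so the groups overlapped. Its interval ran from -0.42 to 0.88 around a log2 fold change of 0.23 (adjusted p = 0.771, limma). With quantile normalization the log2 fold changes were 0.15 for WRKY45 and 0.08 for WRKY13. Neither interval reaches the fold change of any of the 6 loci that rose, and a smaller difference in either direction is within both.

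WRKY24 and WRKY51 are known as repressors of hormone response in the aleurone, the outer cell layer of the grain's storage tissue. WRKY24 (LOC_Os01g61080, chromosome 1, bases 35346935 to 35349602, plus strand) had 108 and 80.2 FPKM with buffer and 170 and 162 with CysNO, a log2 fold change of 0.83 ± 0.28 (SE; adjusted p = 0.178, limma). WRKY51 (LOC_Os04g21950, chromosome 4, bases 12416278 to 12418171, plus strand) had 82.0 and 83.9 FPKM with buffer and 98.2 and 122 with CysNO, a log2 fold change of 0.39 ± 0.27 (SE; adjusted p = 0.534, limma). Both had higher values in every CysNO library than in any control, and neither passed.

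Further abundant loci without a name here were LOC_Os01g14440, LOC_Os08g13840, LOC_Os05g09020 and LOC_Os09g16510. LOC_Os01g14440 had 140.3 and 137 FPKM with buffer and 244 and 233 with CysNO (adjusted p = 0.191, limma). LOC_Os08g13840 had 48.3 and 56.2 FPKM with buffer and 88.4 and 108 with CysNO (adjusted p = 0.126, limma). Both read higher in each CysNO library than in each control. LOC_Os05g09020, at 119 and 80.0 FPKM with buffer and 98.1 and 112 with CysNO, overlapped between the groups, and its log2 fold change of 0.11 became -0.06 with quantile normalization and -0.18 without control 2. LOC_Os09g16510 was the 1 abundant locus with lower values after CysNO, at 236 and 224 FPKM with buffer and 183 and 193 with CysNO (log2 fold change -0.29 ± 0.28, SE; adjusted p = 0.697, limma).

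The responses can be set out by level, as a description. The level is the mean over all 4 libraries, CysNO included, so a locus that rises can enter a higher level through its CysNO values. Of the 12 loci with a mean of 50 FPKM or more, 9 were higher in both CysNO libraries than in both controls and 1 was lower, and their median log2 fold change was 0.80. At this level 30.1% of all 2546 tested loci were higher without overlap, with a median of 0.06. All 5 loci from 20 to 50 FPKM were higher without overlap, where 25.4% of all tested loci were. This is in part built in, as LOC_Os01g51690, LOC_Os01g46800 and WRKY70 had control means of 7.34, 12.6 and 13.0 FPKM. These loci reached the level only through CysNO, as LOC_Os11g29870, with a control mean of 26.5 FPKM, did for the level above. From 5 to 20 FPKM 7 of the 19 loci were higher (36.8%) and 6 lower without overlap, with a median of -0.08. Of all 8309 tested loci there, 19.8% were higher. The share of all tested loci that were lower was not taken by level, and over all levels it was 24.9%. LOC_Os01g09100, LOC_Os11g02530 and LOC_Os12g02450, with control means of 3.99, 3.16 and 2.82 FPKM, reached this level only through CysNO. LOC_Os03g21710, with means of 7.39 FPKM with buffer and 2.64 with CysNO, reached it only through its controls. From 1 to 5 FPKM, 3 of 12 (25%) were higher and 2 lower, beside 18% higher of all 6407 tested loci. The shares at these lower levels are thus also in part built in by the sorting. Calls were made at 1 of 12 WRKY loci at 50 FPKM or more and 2 of 5 from 20 to 50. From 5 to 20 they were 3 of 19, and from 1 to 5 they were 0 of 12. LOC_Os01g09100 and LOC_Os11g02530 are among these 3 and had control means under 5 FPKM, so these counts follow from the sorting too. Of all tested loci 10.2%, 6.4%, 3.33% and 2.01% were called at these 4 levels, in either direction. Replicates of the tested WRKY loci differed by a median of 0.47 on the log2 scale between the controls and 0.24 between the CysNO libraries, against 0.30 and 0.32 over all tested loci.

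**Figure D3:**
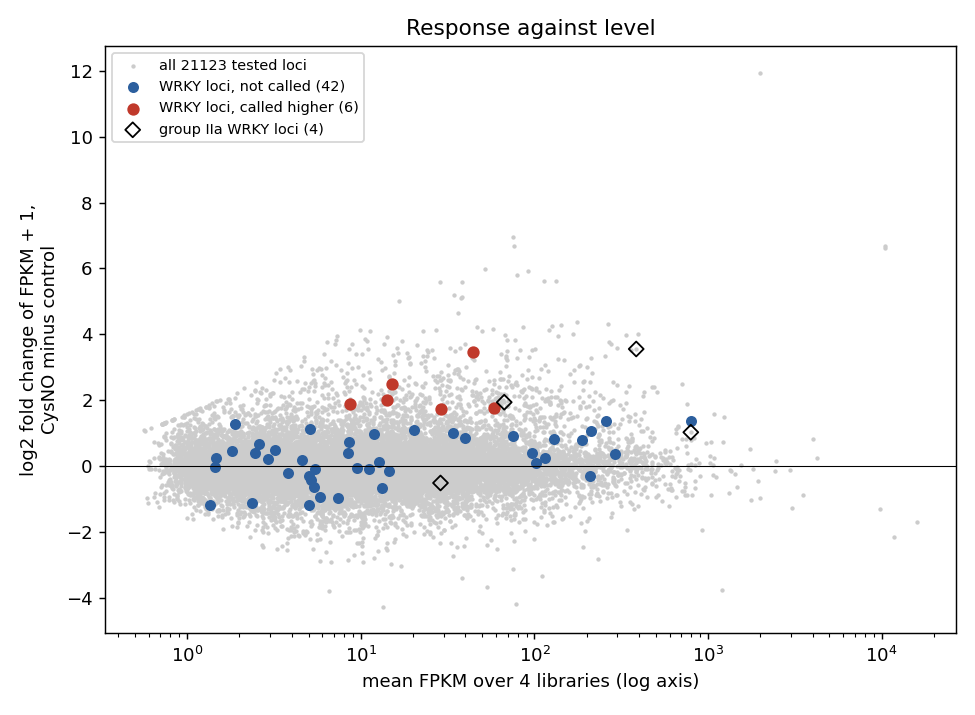
Log2 fold change of FPKM + 1 against mean FPKM over the 4 libraries (log axis) for all 21123 tested loci in grey, the WRKY loci outside group IIa in blue (not called) or red (called higher), and the 4 group IIa loci as open diamonds. From 20 FPKM upward all WRKY points outside group IIa but 1 lie above 0 (LOC_Os05g09020 among them, which is below 0 with quantile normalization), while below 20 FPKM they lie on both sides. The mean includes the CysNO libraries, so a rise in CysNO also moves a point to the right.

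The 54 loci together summed to 2173 and 1991 FPKM in the controls and to 3555 and 3926 in CysNO, 1.80 times the control level. Their share of all FPKM in the library was 0.312% and 0.287% in the controls and 0.485% and 0.571% in CysNO. WRKY53 alone held 20.6% and 22.6% of the summed level in the controls and 30.1% and 31.2% in CysNO. It accounted for 42.2% of the difference in the sum between group means, and the 6 loci called for 13.3%. Without WRKY53 the sum was 1725 and 1541 FPKM with buffer and 2483 and 2700 with CysNO, 1.59 times as high. The 42 loci under 50 FPKM summed to 267 FPKM in each control and to 476 and 479 in CysNO. Most of the difference in the sum thus lay in loci that did not pass the test one by one.

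**Figure D4:**
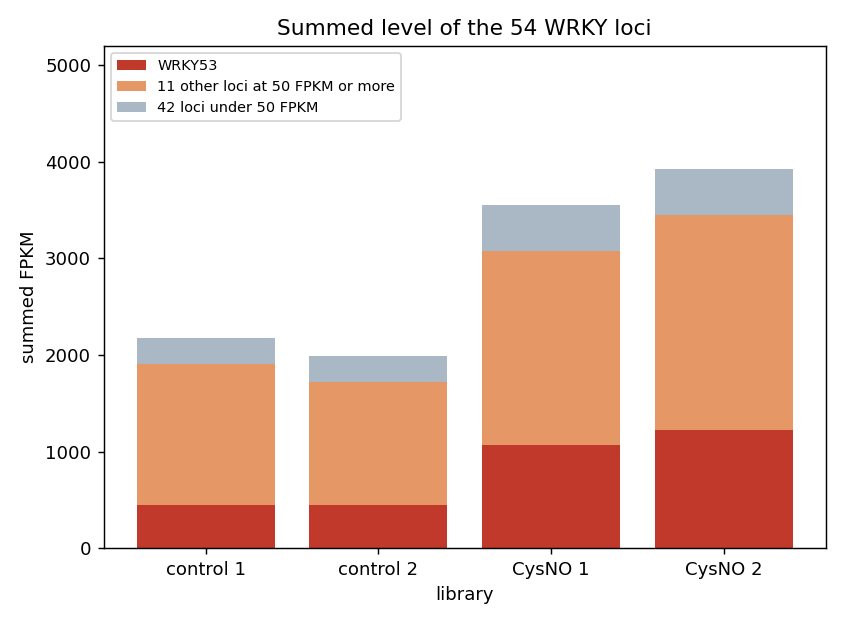
Summed FPKM of the 54 WRKY loci in each library, split into WRKY53, the 11 other loci with a mean of 50 FPKM or more, and the 42 loci below that mean. Both CysNO bars, at 3555 and 3926 FPKM, stand above both control bars, at 2173 and 1991.

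Among the members of middle level that did not pass, LOC_Os01g46800 had 15.0 and 10.3 FPKM with buffer and 24.6 and 31.4 with CysNO (adjusted p = 0.0923, limma). LOC_Os12g40570 had 24.3 and 20.8 FPKM with buffer and 44.8 and 46.5 with CysNO (adjusted p = 0.0801, limma). LOC_Os05g49620 had 23.8 and 32.4 FPKM with buffer and 54.4 and 47.7 with CysNO (adjusted p = 0.154, limma). The groups were apart at these 3 loci, with log2 fold changes from 0.85 to 1.10. LOC_Os01g60640 also read higher, at 5.46 and 10.5 FPKM with buffer and 14.3 and 17.3 with CysNO (adjusted p = 0.198, limma). It overlaps LOC_Os01g60650 on the other strand, which had 47.1 and 58.1 FPKM with buffer and 73.0 and 81.2 with CysNO. The sources used here do not give whether strand was used in counting, so reads of the pair cannot be told apart.

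A small cluster of WRKY loci lies near the end of chromosome 11, and a further locus lies near the end of chromosome 12. These chromosome ends are known as copies of each other in rice. LOC_Os11g02530 (bases 786543 to 788031), which rose, had 2.45 and 3.87 FPKM with buffer and 12.9 and 15.3 with CysNO. LOC_Os11g02540, 4085 bp away on the same strand, had 0.775 and 0.512 FPKM with buffer and 2.08 and 4.16 with CysNO (log2 fold change 1.28 ± 0.36, SE; adjusted p = 0.110, limma). LOC_Os11g02480, 24207 bp to the other side, had lower values after CysNO, with 6.35 and 5.72 FPKM with buffer and 4.11 and 4.39 with CysNO (log2 fold change -0.42 ± 0.28, SE; adjusted p = 0.524, limma). Neighbours in the cluster thus had values in opposite directions, and the difference between them was not tested.

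On chromosome 12, LOC_Os12g02450 (bases 823302 to 824793) had 2.43 and 3.21 FPKM with buffer and 7.12 and 7.61 with CysNO, with a log2 fold change of 1.14 ± 0.29 (SE; adjusted p = 0.0834, limma). Its span of 1492 bp is close to the 1489 bp of LOC_Os11g02530. The sources used here do not give how reads shared by similar loci were divided, so the values of the pair are uncertain.

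Besides LOC_Os09g16510, 8 tested loci had lower values in both CysNO libraries than in both controls, and none passed. LOC_Os03g21710 had 6.49 and 8.29 FPKM with buffer and 2.48 and 2.79 with CysNO, the most negative log2 fold change at -1.20 ± 0.30 (SE; adjusted p = 0.0747, limma). LOC_Os05g04640 had 1.66 and 2.91 FPKM with buffer and 0.594 and 0.245 with CysNO (log2 fold change -1.19 ± 0.35, SE; adjusted p = 0.122, limma). LOC_Os08g38990 had 5.96 and 1.59 FPKM with buffer and 0.632 and 1.28 with CysNO, so its size rested on control 1. Its log2 fold change was -1.14 ± 0.49 (SE; adjusted p = 0.285, limma), and without control 2 it was -1.85 and passed (adjusted p = 0.0302, within a range of 0.0302 to 0.775 over all alternatives but the crossed block), while without control 1 it was -0.42.

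LOC_Os07g48260 had 14.1 and 6.42 FPKM with buffer and 3.75 and 5.27 with CysNO (adjusted p = 0.262, limma), LOC_Os01g08710 had 6.32 and 9.60 against 4.62 and 2.79 (0.208), and LOC_Os01g47560 had 21.1 and 12.3 against 10.5 and 8.94 (0.335). The groups did not overlap at these loci either, and the log2 fold changes ran from -0.96 to -0.68. The controls were far apart, and the log2 fold change of LOC_Os07g48260 was -0.44 without control 1 and -1.47 without control 2, and that of LOC_Os01g47560 was -0.31 and -1.05. LOC_Os08g29660 was also slightly lower, at 6.28 and 5.09 FPKM with buffer and 4.45 and 4.25 with CysNO (adjusted p = 0.676, limma). It overlaps LOC_Os08g29669 on the other strand, which had 49.5 and 32.1 FPKM with buffer and 25.8 and 21.5 with CysNO. As with LOC_Os01g60640 and its overlapping locus, reads of this pair cannot be told apart, so the lower values of LOC_Os08g29660 are uncertain.

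The remaining 17 tested loci had values from 0.421 to 17.1 FPKM and log2 fold changes from -0.64 to 0.73, with adjusted p from 0.422 to 0.986 in limma. The groups overlapped at 13 of them, and at the other 4, LOC_Os01g43650, LOC_Os04g39570, LOC_Os06g05380 and LOC_Os02g26430, both CysNO values lay above both controls. At some the controls were far apart. LOC_Os01g53040 had 2.51 and 9.68 FPKM with buffer and 5.52 and 4.13 with CysNO, and LOC_Os01g53260 had 3.76 and 10.3 FPKM with buffer and 3.86 and 3.55 with CysNO. At both the CysNO libraries lay close together, and at LOC_Os01g53040 they lay between the controls.

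The 6 WRKY loci that were not tested had mean levels under 1 FPKM. LOC_Os01g60490 was listed at 0 in both controls and had 1.05 and 0.400 FPKM in CysNO. LOC_Os05g40060 was listed at 0 and at 0.194 FPKM in the controls and had 2.37 and 0.179 in CysNO, so its 1 higher value came from CysNO 1. The other 4, LOC_Os01g74140, LOC_Os02g43560, LOC_Os07g02060 and LOC_Os06g30860, had values under 1 FPKM in every library, and their groups overlapped. No fold is given for these loci.

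The 4 loci of group IIa, WRKY genes known as repressors and modulators of defence, are set beside the rest of the family for scale. LOC_Os06g44010 had 53.0 and 66.9 FPKM with buffer and 743 and 679 with CysNO, and rose by 3.55 ± 0.29 on the log2 scale (SE; adjusted p = 0.00211, limma). WRKY62 (LOC_Os09g25070) also rose (adjusted p = 0.0108, limma), and both calls were lost without either CysNO library (adjusted p from 0.196 to 0.249, limma), with the block (0.0559 and 0.0822) and with no filter (0.0786 and 0.0926), while WRKY71 (LOC_Os02g08440) read higher without passing, at 623 and 434 FPKM with buffer and 984 and 1139 with CysNO (adjusted p = 0.211, limma). The last, LOC_Os09g25060, read lower (log2 fold change -0.52, limma, adjusted p = 0.345). WRKY71 and WRKY53 were the most abundant WRKY loci examined in every library. The group IIa sum was 2.93 times as high after CysNO, and whether this differs from the 1.80 of the other 54 loci was not tested.

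Of the 14 listed genes of the pathway around WRKY proteins, 1 rose and 0 fell, beside 3.27% higher and 0.956% lower over all tested loci, a share that 1 of 14 genes cannot be told from. That gene, LOC_Os02g54600, from the receptor and kinase genes of the list, had 81.8 and 52.8 FPKM with buffer and 184 and 215 with CysNO (log2 fold change 1.58 ± 0.31, SE; adjusted p = 0.0372, limma). It did not pass with median centring (adjusted p = 0.0694, limma), quantile normalization (0.0895), no filter (0.157), the block (0.158), or without control 2 (0.103), CysNO 1 (0.311) or CysNO 2 (0.262). The chitin receptor gene CEBIP (LOC_Os03g04110) had 66.3 and 55.9 FPKM with buffer and 35.6 and 32.2 with CysNO (adjusted p = 0.139, limma), and CERK1 (LOC_Os08g42580), for its partner kinase, had 28.4 and 22.1 against 30.0 and 33.2 (0.626). Of the MAP kinase genes, MAPK6 (LOC_Os06g06090) had 25.8 and 23.5 FPKM with buffer and 37.6 and 24.8 with CysNO (adjusted p = 0.698, limma), and MPK3 (LOC_Os03g17700) had 263 and 220 FPKM with buffer and 451 and 505 with CysNO (adjusted p = 0.148, limma). The groups overlapped at MAPK6 and did not at MPK3. NH1 (LOC_Os01g09800), the rice NPR1 gene of salicylate signalling that acts in parallel to WRKY45, had 9.23 and 5.06 FPKM with buffer and 9.24 and 10.8 with CysNO (adjusted p = 0.547, limma). LOC_Os03g46440, listed beside it as a salicylate regulator, had 13.6 and 12.5 FPKM with buffer and 26.9 and 30.5 with CysNO (adjusted p = 0.0650, limma; 0.0471 with the filter of 5 FPKM).

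Downstream, 0 of 7 listed defence genes passed in limma and 0 had an unadjusted p under 0.05, and at 3.27% higher and 0.956% lower over all tested loci a count of 0 among 7 says little. LOC_Os12g36880 had 1336 and 1818 FPKM with buffer and 1612 and 489 with CysNO, and its log2 fold change of -0.81 rested on CysNO 2, without which it was 0.05. LOC_Os07g03710 had 24.6 and 71.3 FPKM with buffer and 41.0 and 71.0 with CysNO, and LOC_Os01g28450 had 5.01 and 9.12 against 11.4 and 2.41. The groups overlapped at these 3 loci. The diterpenoid phytoalexin genes CPS2, CPS4, KS4 and KS7 had log2 fold changes of -0.32, -0.36, 0.37 and -0.52. The median over these 7 genes was -0.32, against 0.38 over the tested WRKY loci, and the difference between the lists was not tested.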

How the data were processed

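Per the file headers, the authors deposited FPKM values, 1 for each locus in a library, beside its coordinates. Bowtie 0.12.2 is listed in the submitters' processing notes, beside mm8, a build of the mouse that cannot hold rice loci. The sources used here do not give the rice build, counting program, annotation or filters. A listed 0 may be an estimate that failed. The coordinates are those of the files.

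Values were tested as log2(FPKM + 1), which understates changes of low loci, over the 21123 loci that reached 1 FPKM in 2 or more libraries. The two-sided test of CysNO against buffer used limma 3.58.1 (R 4.3.3), a trend of variance on mean and Benjamini-Hochberg adjustment over all tested loci (degrees of freedom: 2 residual, 5.36 prior). Single loci were not tested by permutation because 2 against 2 libraries cannot reach 0.05. Intervals are limma's 95% intervals. Relative depth was the most frequent log2 ratio to control 1 over loci under 0.3 FPKM in every library.

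The members, lists and tests were chosen with earlier results of these data known. The text describes every locus called, the 5 loci named in the list definition, the 6 with the most positive and the 6 with the most negative log2 fold changes, the 5 with the highest mean, members within 50 kb of each other, and group IIa; the rest were chosen after their values were seen. Libraries sharing a replicate number deviated from their group means with a correlation of -0.19, so the numbers were not taken as pairs. The alternatives changed the scaling (median centring, quantile normalization), the pseudocount (0.1), the filter (none, 5 FPKM), the model (the replicate number as a block and, chosen after seeing the data, the numbers crossed), the libraries (each left out) and the threshold (adjusted p under 0.01; log2 fold change of 1 or more in size). Protein and promoter features were not analysed here. The libraries of a group did not hold the same values.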

Additional observations from a re-analysis of the deposited data

How the results depend on the processing

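The main counts were 6 WRKY loci higher and 0 lower (4 lower at an unadjusted p under 0.05 in limma), and 691 and 202 over all tested loci. Quantile normalization and median centring gave 4 WRKY loci higher each, all of them among the 6, and 393 and 381 loci higher and 87 and 68 lower over all loci. Without a filter on low values 0 WRKY loci, and 2 loci higher and 0 lower over all loci, were called among 30798 loci. At an adjusted p under 0.01, 1 WRKY locus, 172 higher and 14 lower were called. The replicate block, for libraries that share only a number, gave 0 WRKY loci, 53 higher and 2 lower. With the numbers crossed, an alternative added after the data were seen, the counts were 17 WRKY loci higher and 3 lower, and 1625 and 1206 over all loci. In that fit limma's prior degrees of freedom were infinite. Each locus was thus given the variance of the trend, and the spread of its own values was not used.

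Leaving out 1 library at a time gave 0 to 6 WRKY loci higher and 0 to 1 lower, and 0 to 816 higher and 0 to 484 lower over all loci. The calls were lost without either CysNO library, where limma's prior degrees of freedom fell to 2.82 and 2.86. The median log2 fold change of the WRKY loci was 0.35 to 0.51 with a library left out and 0.56 with the filter of 5 FPKM, which leaves 36 of them. The filters, blocks and thresholds leave the log2 fold change of a locus as it was, so its direction could not change there. Of the 57 tested loci named in the text, 52 kept their direction under every alternative. The other 5 did not pass under any: with a library left out, the log2 fold change ran from -0.178 to 0.388 at LOC_Os05g09020 (-0.0593 with quantile normalization), -0.885 to 0.719 at LOC_Os01g53040, -1.67 to 0.0490 at LOC_Os12g36880, -0.395 to 1.10 at LOC_Os07g03710 and -1.19 to 0.665 at LOC_Os01g28450. Of 735 single values, 654 kept their direction and side of the threshold, 52 lost the threshold, 20 gained it and 9 changed sign. Only 9 of the 57 loci were called in the main fit, and all 52 losses fell on these 9. Most of the 654 values come from loci that were not called and stayed so, so this count does not measure how stable the calls are. These 735 values include the crossed block, from which most of the 20 gains came. The log2 fold changes of 27 loci, none of the 9 called, moved by over 1.5 times or changed sign under an alternative other than the crossed block, 23 of them with a library left out. The cause of these differences was not tested. Depth is not known in absolute terms, so no limit from counting can be given.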
